A study of Mus musculus with 18 samples.

Results

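The trophectoderm genes were a set of 10 genes, Cdx2, Eomes, Elf5, Tfap2c, Gata2, Gata3, Krt8, Krt18, Hand1 and Tead4, taken by gene symbol from 21859 genes in a nascent transcription (TT-seq) table. The promoter upstream transcripts (PROMPTs, RNAs that run divergently from a gene's start) that carried the same symbols were taken from a second table of 32253 regions. All 10 genes had a row in the first table, and 8 had one in the second; Gata3 and Krt8 had none there. The table came from 18 libraries of mouse E14 embryonic stem (ES) cells, 3 in each of 6 conditions. The conditions were the untagged line, clone 1 and clone 2 of the SPT16-AID-V5 lines, each given either the auxin 3-IAA, at a dose labelled as 500 nM, or 0.1% ethanol for 24 h. All lines carried the auxin receptor osTIR1. All were grown in medium with serum, LIF and inhibitors of GSK and MEK. In both clones the gene for SPT16, a subunit of the histone chaperone FACT, carried a C-terminal mini-AID degron and V5 tag, so that 3-IAA depletes the protein. Each clone is a single line, and the repeats within a condition were named technical replicates by the study. RNA was labelled with 4-thiouridine for 5 min before collection, after which the labelled fraction was sequenced.

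The trophectoderm is the outer epithelium of the blastocyst, which gives rise to the placenta and is normally closed to ES cells. In the outer cells of the embryo, where Hippo signalling is low, TEAD4 and its partner YAP activate Cdx2 and Gata3. CDX2, EOMES, ELF5 and TFAP2C then act in a mutually supporting network that keeps trophoblast stem cells in place, while KRT8 and KRT18 assemble the intermediate filaments of the epithelium. HAND1 acts later, when trophoblast giant cells form.

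The measurement used for every gene was baseMean, the authors' mean of normalised read counts over the libraries of the table. A single value was used per gene, since the remaining columns held the authors' own comparison. It pooled depleted and control cells, so no value in any condition, no spread between replicates and no test of depletion could be derived from it. Errors given below are counting errors only, stated as the largest that the depth of the libraries allows, and they leave out any difference between libraries. To set genes beside each other, baseMean was divided by the summed exon length in kb. The whole gene span in kb served as a second scale, since the sources used here do not say whether introns were counted. Whether they were was not tested. If intron reads were counted, the exon scale raises genes with long introns, such as Tead4. Because these are bulk samples, fewer cells that transcribe a gene and less RNA per cell cannot be told apart.

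The ES cell label was checked against marker genes, on the mean over all 18 libraries. Because 12 of these were controls, high ranks in that mean cannot show the state of the 6 depleted libraries. The paper reports reduced transcription of pluripotency genes and signs of differentiation in depleted cells. All 9 ES cell markers lay above the median gene, with a median at the 99.5th percentile of the level per kb of exon among the 20140 genes with reads and a known length. They ran from Dppa3, a germ cell and naive pluripotency factor at 151 per kb of exon, to Zfp42, which encodes the naive marker REX1, at 12345 per kb of exon. The cells were grown without feeders, and of 5 fibroblast markers 1 lay above the median gene. This was Pdgfrb at 174 per kb of exon, while Acta2 was the lowest at 0.643. The part of any other cell type in the levels below was not tested.

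All 10 trophectoderm genes had a baseMean of at least 1, beside 80.9% of all genes in the table. With the limit raised to 100, 7 of the 10 passed, beside 57.3% of all genes. Cdx2, Eomes, Gata2, Gata3, Krt8, Tfap2c and Tead4 passed this second limit, whereas Krt18, Elf5 and Hand1 did not. The median of the set lay at the 41.4th percentile per kb of exon and at the 47.0th percentile per kb of gene span. The set was not uniform, since its highest gene stood 4967 times above its lowest per kb of exon and 1562 times per kb of gene span.

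**Figure D1:**
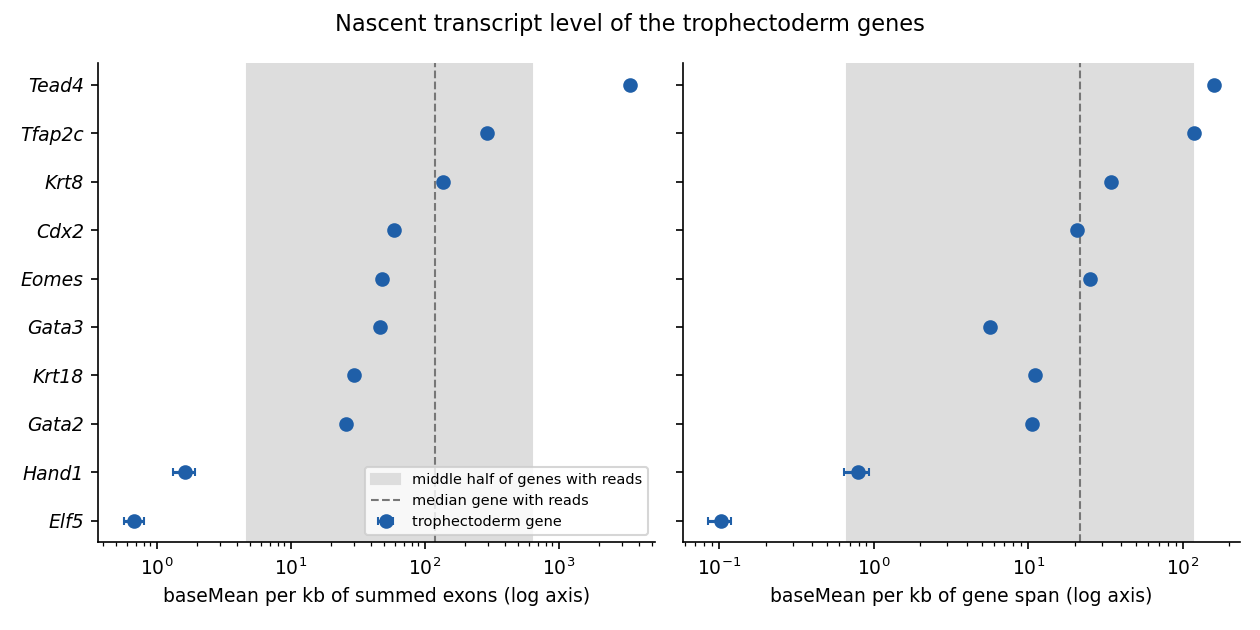
Level of each trophectoderm gene as baseMean per kb of summed exons (left) and per kb of gene span (right), both on log axes. Points are the authors' mean over the libraries with the largest counting error the depth allows, the grey band spans the 25th to 75th percentile of genes with reads and the dashed line is their median; on the left Tead4, Tfap2c and Krt8 lie above that median of 120 per kb, and Hand1 and Elf5 lie below the band.

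Tead4, which encodes the DNA-binding partner of YAP at the top of the trophectoderm programme, was the highest member on both scales. Its baseMean was 12245 ± 37.6 (largest counting error), or 3403 per kb of exon, the 97.6th percentile. Tead4 lies on chromosome 6 from 128224288 to 128300823 (GRCm38, minus strand), and its 3.60 kb of exon are spread over a span of 76.5 kb. Per kb of gene span its level was 160, the 82.0th percentile. The lead of Tead4 over the next gene, Tfap2c, was 11.7-fold per kb of exon but 1.34-fold per kb of gene span, so the size of the lead depended on the length used.

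Tfap2c encodes an AP-2 factor that binds with CDX2 and EOMES in trophoblast stem cells and is also active in germ cells. Its baseMean was 1074 ± 11.1, which gave 292 per kb of exon, the 61.3rd percentile. On the gene span scale it reached 119 per kb, the 75.4th percentile. Tfap2c occupies chromosome 2 from 172549593 to 172558622 on the plus strand, and no other annotated gene overlapped it.

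The defining lineage factors came lower. Cdx2, the homeobox factor that represses pluripotency genes in the outer cells, had a baseMean of 134 ± 3.93, or 59.4 per kb of exon. Eomes, a T-box factor needed for trophoblast stem cells and later for mesendoderm, had a baseMean of 199 ± 4.79, or 47.9 per kb of exon. Gata3, a direct TEAD4 target, had a baseMean of 186 ± 4.63 and 46.8 per kb of exon. Gata2, which acts alongside Gata3 and in blood cells, had a baseMean of 139 ± 4.00 and 25.8 per kb of exon. These genes sat between the 36.6th and 43.4th percentiles of genes with reads per kb of exon, all below the median gene, whereas per kb of gene span Eomes lay at the 51.5th percentile.

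The order within this middle group rested on the length scale. Eomes and Gata3 differed by 1.06 per kb of exon, which was 0.645 times their combined counting error, and so could not be ranked on that scale. Cdx2 stood 5.53 counting errors above Eomes per kb of exon, but per kb of gene span Eomes stood above Cdx2, at 25.1 against 20.8. Gata3 was 1.82 times Gata2 per kb of exon and 0.534 times Gata2 per kb of gene span. The Gata3 model spans 33.0 kb on chromosome 2 (9857078 to 9890034, minus strand) and overlaps 1 gene on the same strand, 9230102O04Rik, so reads of the shared stretch could not be assigned with certainty. Gata3 also overlaps Gm13256 and 4930412O13Rik on the opposite strand, and Eomes overlaps Gm33460, Tead4 overlaps Gm21893 and Krt8 overlaps Gm36026 in the same way. The authors' counting used strand.

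The keratin partners, which pair in equal amounts as proteins, were not equal at the level of nascent RNA. Krt8, the type II keratin, had a baseMean of 268 ± 5.55, or 137 per kb of exon, the 51.3rd percentile. Krt18, the type I keratin, had a baseMean of 42.4 ± 2.21, or 29.5 per kb of exon, the 37.7th percentile. Krt8 was thus 4.63 times Krt18 per kb of exon and 3.11 times per kb of gene span. The genes are neighbours on chromosome 15 and point away from each other, with 23.7 kb between their starts. Krt18 could barely be ranked against Gata2, since they differed by 2.21 counting errors per kb of exon and by 0.689 per kb of gene span.

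Elf5 and Hand1 were at the foot of the order on both scales. Elf5, an ETS factor whose promoter is methylated in ES cells and open in trophoblast, had a baseMean of 4.03 ± 0.681. This stood for between 34.9 and 187 reads over the libraries together. Over its 5.88 kb of exon the level was 0.685 per kb, the 14.0th percentile. Hand1, the basic helix-loop-helix factor of giant cells and extraembryonic mesoderm, had a baseMean of 3.26 ± 0.613, from between 28.3 and 151 reads. Its level was 1.63 per kb of exon, the 18.6th percentile, which stood 2.89 counting errors above Elf5. The next member up, Gata2, was 15.8 times higher than Hand1 per kb of exon.

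The pooling of conditions still set limits on any group of libraries, because a mean cannot hide more reads than it contains. SPT16-depleted cells made up 6 of the 18 libraries, so the mean over them could be at most 3 times baseMean. The mean over the other 12 could be at most 1.5 times baseMean. For Elf5 this allowed at most 12.1 normalised reads in depleted cells and 6.04 in controls. For Hand1 the limits were 9.78 and 4.89. Per kb of exon, Elf5 could not have exceeded 2.06 in depleted cells and Hand1 4.90, even had all their reads come from there. The same limits were 178 per kb for Cdx2, 144 for Eomes and 140 for Gata3, all past the median gene at 120 per kb. For Gata2 and Krt18 they were 77.3 and 88.6, short of that median. Tead4, Tfap2c and Krt8 were above it in the pooled level already. The median gene is itself taken from the mean over all 18 libraries, not from depleted cells. The factors of 3 and 1.5 are the same for every member, so the pooled value left each the same relative room.

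Each gene was next set beside the other genes of its family, described by the same pooled level. All 4 Tead genes lay above the median gene. Tead1, a broadly expressed member, led at 5462 per kb of exon, 1.60 times Tead4, while Tead2 had 331 and Tead3 126. Tead4 thus stood 10.3-fold above Tead2 per kb of exon and 1.81-fold per kb of gene span. Among the Cdx genes, Cdx1, an intestinal and axial patterning gene, had 1385 per kb of exon, 23.3 times Cdx2 on the exon scale and 6.73 times on the gene span scale. Cdx4 was the lowest of them at 16.8.

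The contrast was widest in the epithelium-specific ETS genes. Elf3 had 1701 per kb of exon, the 91.6th percentile, against 0.685 for Elf5, a ratio of 2482 that rose to 7369 per kb of gene span. In the AP-2 family, Tfap2a had 375 per kb of exon, 1.28 times Tfap2c, but per kb of gene span it was 0.669 times Tfap2c. Tfap2b, Tfap2d and Tfap2e had 0.359, 2.72 and 25.4 per kb of exon. None of the 6 Gata genes reached the median gene. Gata4, a primitive endoderm factor, was the highest at 117 per kb of exon, 2.49 times Gata3, and Gata5 was the lowest at 0.248. Per kb of gene span Gata2 was the highest instead, at 10.6 against 6.26 for Gata4, which was then 1.11 times Gata3. Gata1 had 15.2 per kb of exon and so did Gata6, both below Gata2. The other simple keratins were lower than Krt8, with 8.03 per kb of exon for Krt7 and 25.1 for Krt19. Hand1 and Hand2 differed by 0.583 counting errors, at 1.63 and 1.40 per kb of exon.

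**Figure D2:**
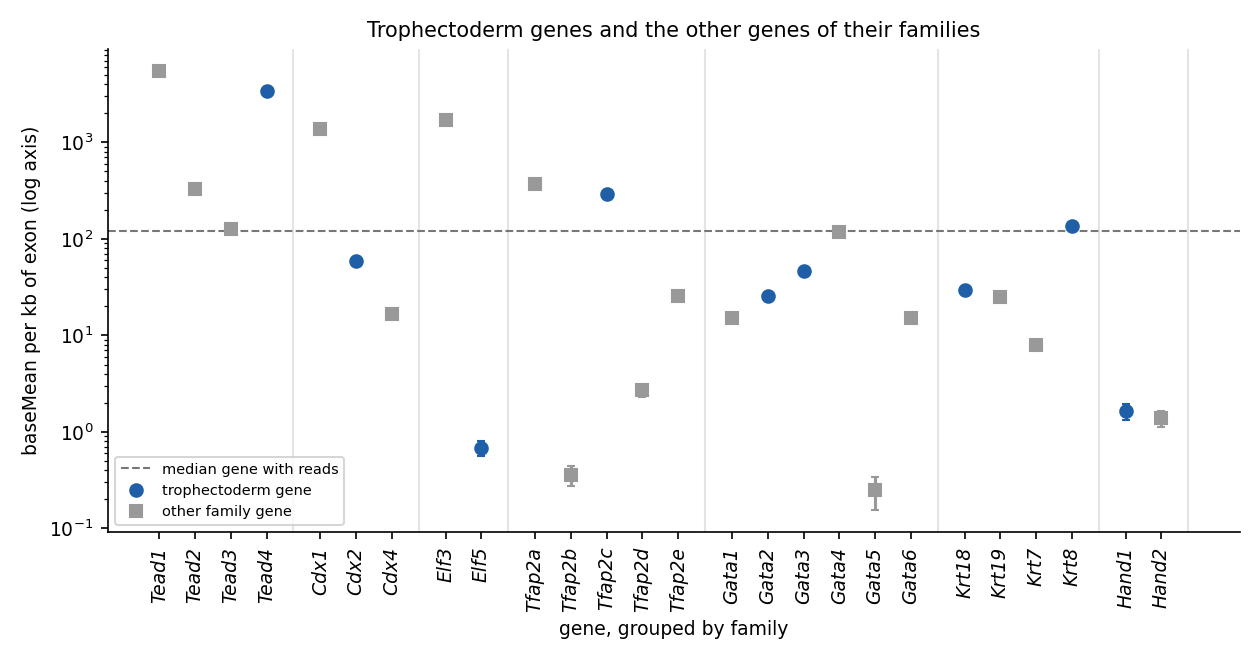
Level of the trophectoderm genes (blue circles) and the other genes of their families (grey squares) as baseMean per kb of exon on a log axis, with the largest counting error the depth allows; the dashed line is the median gene with reads. Tead4 is the second of its family behind Tead1, Tfap2c lies below Tfap2a on this scale but above it per kb of gene span, Cdx2 lies 23.3-fold below Cdx1, and Elf5 lies far below Elf3.

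Beside other marker lists the trophectoderm set took a middle place. The values in this comparison are per kb of exon unless stated. Per kb of gene span all lists but the fibroblast one kept the same order of medians. The fibroblast median was below that of differentiated trophoblast per kb of exon, at the 23.7th against the 24.8th percentile. It was above it per kb of gene span, at the 30.4th against the 26.4th. On that scale the Hippo list below had a median at the 74.98th percentile, and the trophoblast stem cell list at the 68.1st. A further 7 genes of trophoblast stem cells, which are also used elsewhere in the embryo, had a median at the 58.9th percentile. They ran from Id2, an inhibitor of helix-loop-helix factors at 116 per kb of exon, to Klf5 at 3126, a factor shared with ES cells. The 7 primitive endoderm genes had a median at the 32.8th percentile, from Sox7 at 0.810 to Gata4 at 117 per kb of exon. Among 10 genes of differentiated trophoblast, 2 were listed at 0, Tpbpa of the spongiotrophoblast and Synb of the syncytium, and the other 8 had a median at the 24.8th percentile. Plac1 was the highest of these at 103 per kb of exon, and the prolactin relative Prl2c2 the lowest with reads at 0.0961. The 12 genes of the Hippo pathway and its TEAD partners had a median at the 84.5th percentile, from Lats2 at 0.218 to Tead1 at 5462 per kb of exon. Lats2 overlaps Gm49361 and Tead1 overlaps Gm44462 on the same strand, so reads of the shared stretches could not be assigned with certainty. Other genes of the lists, such as Sox2 and Tfcp2l1, have same-strand overlaps too. Fgfr2, of the trophoblast stem cell list, has a model of 2961 kb that overlaps 36 genes on its strand. It lay at the 80.9th percentile per kb of exon and the 35.1st per kb of gene span. These are descriptions of the lists, whose genes were chosen with earlier results known.

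**Figure D3:**
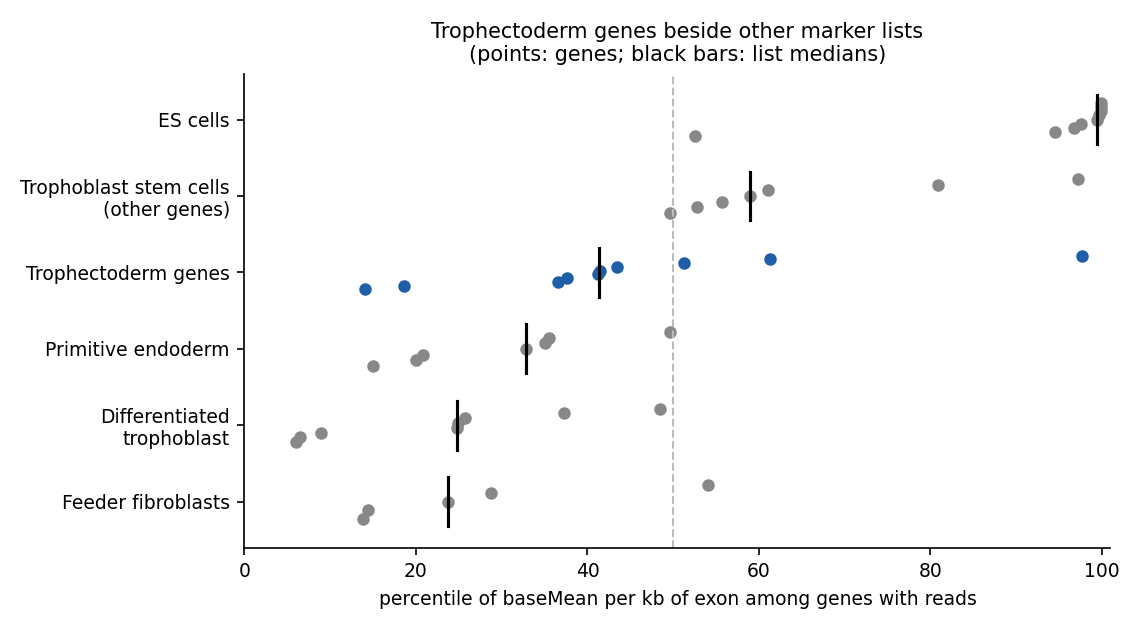
Percentile of each gene's baseMean per kb of exon among the 20140 genes with reads, for the trophectoderm genes (blue) and 5 other marker lists (grey); black bars are medians and the dashed line is the median gene. Tpbpa and Synb, listed at 0, are not drawn. The trophectoderm genes run from the 14.0th to the 97.6th percentile, below 8 of the 9 ES cell markers for all members but Tead4. Per kb of gene span, which is not drawn, Tead4 is at the 82.0th percentile and also below 8 of the 9. Pou5f1 is 0.991 times Tead4 per kb of exon and 9.97 times per kb of gene span.

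The upstream antisense strand was examined through the PROMPT table, in which a region covers up to 1 kb from an annotated start. A PROMPT baseMean of at least 1 was found for 2 of the 8 members with a row, beside 33.7% of all PROMPT rows. The PROMPT of Tfap2c was the highest at 7.71 ± 0.997, the 86.4th percentile of all rows. That of Eomes followed at 5.33 ± 0.829, the 83.2nd percentile. These rested on 59.8 to 289 and 41.4 to 200.2 reads. The PROMPT of Tfap2c was 1.45 times that of Eomes, while the genes themselves differed 6.10-fold per kb of exon.

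The other PROMPTs were near the limit of the depth. Cdx2 had 0.810 ± 0.323, Hand1 0.558 ± 0.268, Gata2 0.398 ± 0.226, Krt18 0.341 ± 0.210 and Tead4 0.275 ± 0.188. The error ranges of neighbours in this order overlapped, and the largest number of reads behind any of them was 30.4. The PROMPT of Elf5 was listed at 0. A count of 0 allows up to 3 reads, which is a baseMean of 0.0799 to 0.387 depending on the library.

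Relative to its gene, the PROMPT level varied widely between members. Every PROMPT region was taken as 1 kb long, since region lengths were not measured. The median over the 8 members was 1.45% of the gene level, both per kb, beside 0.728% for 16615 symbols. These were symbols with a PROMPT row that named a single gene with reads and a known length. With the gene level per kb of gene span the comparison turned, at 3.83% for the members beside 4.52% for those symbols. For Tead4 the share was 0.00808% on the exon scale, the 18.3rd percentile, and 0.172% on the gene span scale. This low share came with a high gene level and a PROMPT of 0.275 that rested on 2.13 to 10.3 reads. That PROMPT lay at the 50.6th percentile of all PROMPT rows, of which 8996 were at 0. It was below the median of 0.815 among PROMPT rows with reads. For Eomes the share on the exon scale was 11.1%, the 82.6th percentile, and for Tfap2c 2.64%. Hand1 had the highest share at 34.2%, the 89.6th percentile, but its PROMPT rested on 4.33 to 20.9 reads. Cdx2, Gata2 and Krt18 lay together at 1.36%, 1.54% and 1.16%. A PROMPT at 0 was shared by 17.5% of the 16615 symbols. The tables were normalised separately. The geometric mean of the size factors recovered was 1.01 for genes and 1.03 for PROMPTs, so that both scales were close to reads of a typical library.

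**Figure D4:**
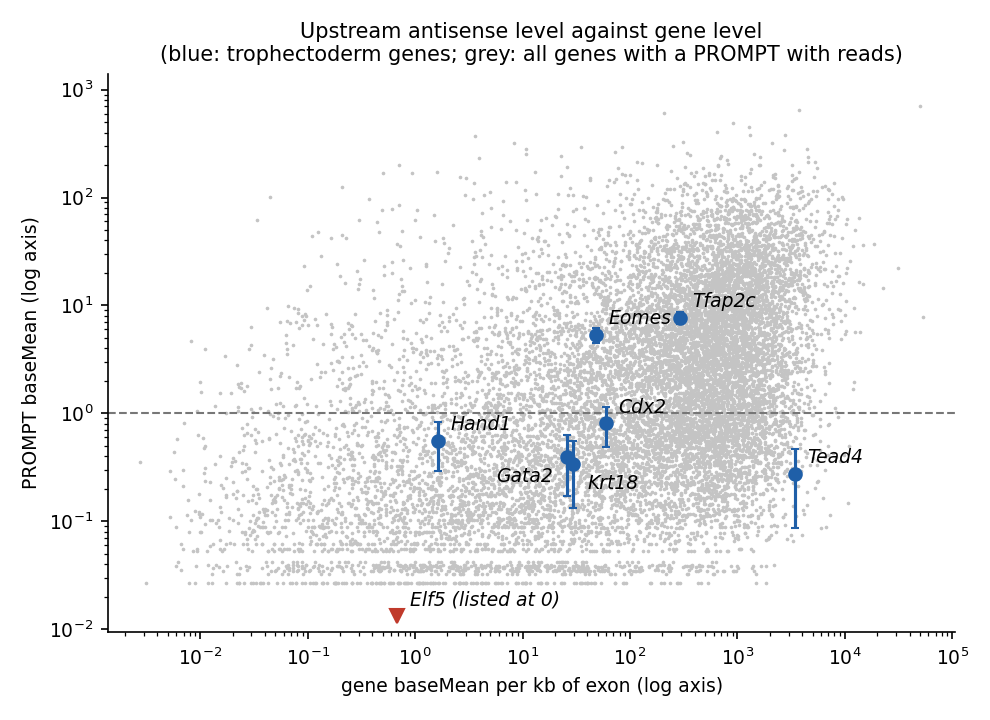
PROMPT baseMean against gene baseMean per kb of exon, both on log axes, for the trophectoderm genes (blue, with the largest counting error the depth allows) and all symbols with a PROMPT with reads (grey); the dashed line is a PROMPT baseMean of 1. Tfap2c and Eomes lie above the line, Tead4 lies at the far right with 0.275, and Elf5 (red triangle), listed at 0, is drawn below the lowest value a single read could give.

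Promoters of the members were next compared in sequence. They were matched by gene symbol, and the start to which a PROMPT belongs was not determined. RefSeq promoters (GRCm38.p6, 250 bases before to 50 bases after the start) matched 7 of the 10 members and gave 9 starts, since Elf5 and Gata2 have 2 each. Tfap2c, Hand1 and Tead4 were not matched. The 250 bases before the start are shown for 4 members that span the range of PROMPT levels, in the direction of the gene, with CG dinucleotides in capitals. Eomes, shown for the highest PROMPT among those matched, is at chr9:118477939-118478188 on the plus strand. Cdx2 is at chr5:147307250-147307499 on the minus strand. Gata2, at its first start, is at chr6:88193641-88193890 on the plus strand. Elf5, at its first start, is at chr2:103411848-103412097 on the plus strand and is shown for a PROMPT listed at 0.
Eomes: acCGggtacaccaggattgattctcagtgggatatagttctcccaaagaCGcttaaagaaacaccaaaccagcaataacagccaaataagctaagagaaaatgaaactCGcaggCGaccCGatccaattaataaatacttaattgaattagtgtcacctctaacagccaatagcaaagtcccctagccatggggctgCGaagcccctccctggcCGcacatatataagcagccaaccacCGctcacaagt
Cdx2: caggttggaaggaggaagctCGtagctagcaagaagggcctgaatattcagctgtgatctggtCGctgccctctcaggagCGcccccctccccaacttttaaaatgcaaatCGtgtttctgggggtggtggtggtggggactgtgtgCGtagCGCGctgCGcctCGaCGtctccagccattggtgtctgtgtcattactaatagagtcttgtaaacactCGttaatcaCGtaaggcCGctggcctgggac
Gata2: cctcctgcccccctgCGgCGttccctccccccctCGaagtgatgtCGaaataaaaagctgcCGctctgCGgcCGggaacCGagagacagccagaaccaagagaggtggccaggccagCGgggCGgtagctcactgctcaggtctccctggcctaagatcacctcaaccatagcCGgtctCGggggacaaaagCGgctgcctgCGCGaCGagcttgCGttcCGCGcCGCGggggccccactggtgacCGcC
Elf5: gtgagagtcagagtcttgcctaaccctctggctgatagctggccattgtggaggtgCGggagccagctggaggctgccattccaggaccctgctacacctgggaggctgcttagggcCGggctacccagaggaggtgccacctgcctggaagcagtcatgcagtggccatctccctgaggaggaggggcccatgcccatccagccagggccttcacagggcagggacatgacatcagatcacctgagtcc

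CG dinucleotides are the sites of DNA methylation in mammals, and promoters rich in them are commonly unmethylated. These stretches held 8 of them in Eomes, 13 in Cdx2, 22 in Gata2 and 2 in Elf5. Over the whole 300 bases the observed over expected CpG ratio, which corrects for base composition, was 0.90 for the first start of Gata2, the 87.3rd percentile of 32851 promoters. It was 0.11 for the first start of Elf5, the 14.7th percentile, and 0.44 for its second start. Cdx2 had 0.73, Gata3 0.66, Eomes 0.61, Krt18 0.60 and Krt8 0.24. Of the 9 starts 7 lay above the median promoter at 0.38. Base content did not follow the same order, since the CpG-poor first start of Elf5 had 60.7% G and C, above the 47.3% of Eomes.

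**Figure D5:**
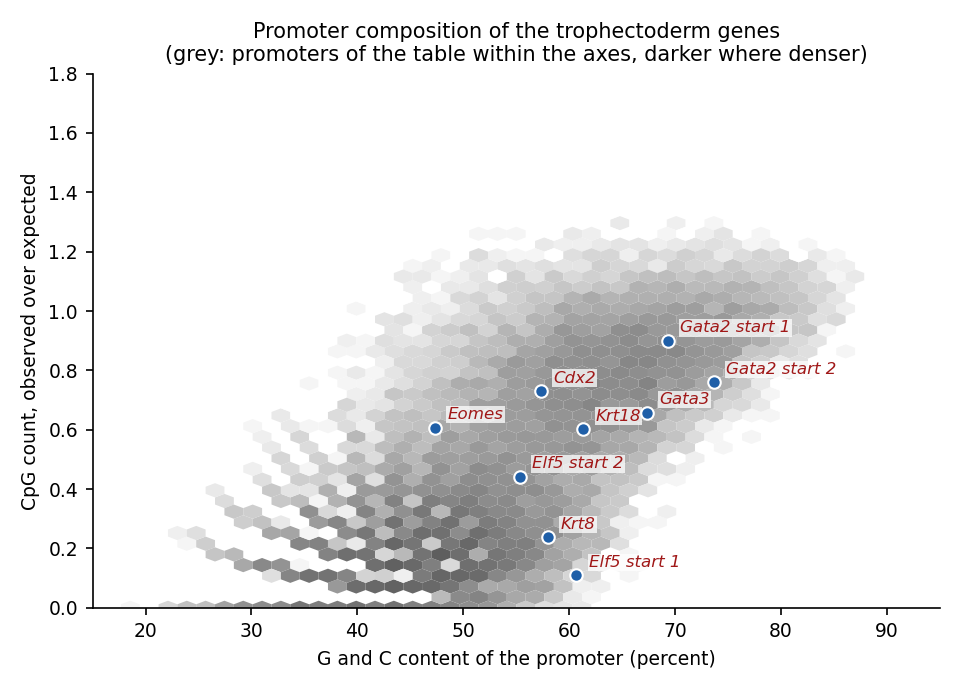
Observed over expected CpG ratio against G and C content for the 9 RefSeq promoters of the trophectoderm genes (blue) and the other promoters of the table (grey, darker where denser). The first start of Elf5 and the start of Krt8 lie below 0.30, and the others lie between 0.44 and 0.90.

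A search for 6 short motifs on both strands gave few matches. The exact string TATAAA, a core of the box bound by the general transcription machinery, occurred in Krt8 alone, beside 13.6% of all promoters. In Krt8 it began 1 base before the annotated start. Variants of this string were not searched for, and the Eomes sequence above holds one, tatataag, shortly before its start. CCAAT occurred in Cdx2, Eomes and the second start of Gata2, beside 37.4% of all promoters. GGGCGG occurred in Gata3 and both starts of Gata2, beside 35.7%. GGAATG, the core bound by TEAD factors, was in the first start of Elf5 and the second of Gata2, beside 14.7%. GATAAG, which GATA factors bind, was in Krt8 and the second start of Elf5, beside 7.44%. The E-box CACGTG was in none, beside 7.15%. A match describes the sequence only.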

How the data were processed

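TT-seq libraries of mouse ES cells were aligned to mm10 with STAR by the authors, keeping uniquely mapped reads, and counted per gene and per PROMPT with strand by featureCounts; the submitters' notes also name HTSeq, deepTools and DESeq2. No versions are given in the sources used here. The deposited tables hold 1 signal column, baseMean, the DESeq2 mean of normalised counts over all libraries, and 4 columns of the authors' comparison of depleted with control cells (fold change, its error, p-value and adjusted p-value). The comparison columns were not used, so levels and not changes are reported here. The gene and PROMPT tables hold no columns of single libraries, and the tables of enhancer and other non-coding RNAs were not used.

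Of 21859 gene identifiers 21817 matched Gencode vM21 (GRCm38), which gave exon lengths, spans and overlaps; the authors' annotation release was later, so lengths may differ for some genes. Percentiles were taken among the 20140 genes with reads and a length, with ties counted as equally above and below. The tables do not give library totals. The depth was read from what 1 read in 1 library adds to baseMean: frequent values up to 0.2, at 0.06 of the top frequency or more, that are not sums of smaller steps within 2e-07. This gave 18 steps in the gene table, from 0.0216 to 0.115, and 18 in the PROMPT table, from 0.0266 to 0.129, so depths differed 5.34-fold and 4.84-fold. All 851 gene values and all 4285 PROMPT values up to 0.12 were sums of these steps. The search was revised with the number of libraries known, after an earlier version found fewer steps in the PROMPT table, so the count of steps is not independent support for it. In 5 simulated gene tables of 21859 genes it recovered 17 to 18 of 18 steps, with both extremes. No PROMPT table was simulated, so the search was not tested at the lower counts of that table. The largest counting error is the square root of baseMean times the highest step, a Poisson bound that covers counting error only. Reads from PCR without molecular identifiers are not independent, and the steps were not assigned to samples.

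Named genes were the 10 members, the other genes of their families, and in each marker list the highest and lowest gene per kb with reads. Genes listed at 0, genes overlapping a member, and same-strand overlaps of Lats2 and Tead1 were named as well. Fgfr2, Sox2 and Tfcp2l1 were named for their own overlaps. The members and lists were chosen with earlier results of these data known. The labels and the study's methods differ in the unit of the 3-IAA dose. Python 3.11.15, numpy 2.4.6, pandas 2.3.3 and matplotlib 3.10.9 were used. Alternatives tried were other limits on baseMean, gene span or no length, other sets of genes for the percentile, and scaling by the table sum.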

Additional observations from a re-analysis of the deposited data

How the results depend on the processing

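The count of genes moved by less than 1.5 times, from 10 at a baseMean of at least 1 to 8 at 10 and 7 at 100. Over all genes the share was 80.9% at 1 and 57.3% at 100. The count of PROMPTs, among 8 rows, depended on the limit, with 2 at 1, 0 at 10 and 7 above 0. Over all PROMPT rows 33.7% reached 1, and 23257 of 32253 were above 0. Shares over all rows at a limit of 10 were not taken. The median percentile of the set was 41.4 per kb of exon, 47.0 per kb of gene span, 41.3 with no length, 33.2 when genes below a baseMean of 1 were dropped and 45.9 when all genes listed were kept. It stayed below the median gene in each of these settings. The median PROMPT share of the gene level was 1.45% per kb of exon and 3.83% per kb of gene span. Over the 16615 symbols compared it was 0.728% and 4.52% on these scales. For the members it was 336% after each value was divided by its table's sum. That last value follows from its construction, since the gene table sums to 231 times the PROMPT table. No paired analysis was possible because each table gives a single mean over all libraries, and for the same reason no replicate could be left out. Depth limits the PROMPT values under 1, Elf5 and Hand1.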
